A study of Mus musculus with 10 samples.

Results

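Small nuclear RNAs (snRNA), small nucleolar RNAs (snoRNA) and small Cajal body RNAs (scaRNA) were measured in mouse livers after an injection that induces acute liver failure. All genes that GENCODE mouse release 21 types as one of these 3 classes were taken by Ensembl identifier, together with Rn7sk, Rmrp and Rpph1, and a gene was kept when its expected counts summed to 10 or more over the 10 mice. Of 2910 such genes among 38922 in the files, 65 were kept, namely 18 snRNA, 39 snoRNA and 5 scaRNA genes and the other 3. The mice were male, wild-type C57BL/6N animals aged 6 weeks, and both groups were killed 6 h after 1 intraperitoneal injection. The 5 mice of the CD95-Ab group received 0.5 µg/g of an antibody that activates CD95 (Fas), a death receptor of hepatocytes, and the 5 controls received an equal volume of saline. Each mouse gave 1 liver library, made from 500 ng of total RNA with TruSeq reagents and read as pairs of 100 bp.

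Most of these RNAs are made in the nucleus, carry no poly(A) tail and act inside RNA-protein particles. U1 and U2 snRNAs recognise intron ends and branch sites in the spliceosome. Box C/D snoRNAs guide 2'-O-methylation of ribosomal RNA and box H/ACA snoRNAs guide pseudouridylation, while a few, such as U3 and U8, take part in cutting the ribosomal RNA precursor. ScaRNAs guide the same modifications on snRNAs in Cajal bodies. Vertebrate guide RNAs are mostly cut from introns of other genes, whereas 7SK RNA (Rn7sk), the RNase MRP RNA (Rmrp) and the RNase P RNA (Rpph1) are made by RNA polymerase III from genes of their own. 7SK RNA holds the elongation factor P-TEFb in an inactive particle.

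The sequences below are those on which the results turn, from GENCODE release 21 transcripts (build GRCm38, RNA strand, with T for U). For 7SK RNA, only bases 1 to 110 of 331 are shown, with each GATC in capitals because the repeat lies in the stem that HEXIM proteins bind. This stretch held GATC 3 times, and 1 of 1401 genes of these classes with a sequence of at least this length, Rn7sk itself, held it that often in its first 110 bases. The RNase MRP RNA is shown whole, without capitals. Rn7sk lies at chr9:78175303-78175633 and Rmrp at chr4:43492788-43493058, both on the minus strand.
Rn7sk: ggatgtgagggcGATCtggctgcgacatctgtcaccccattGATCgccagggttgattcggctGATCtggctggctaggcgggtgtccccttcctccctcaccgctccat
Rmrp: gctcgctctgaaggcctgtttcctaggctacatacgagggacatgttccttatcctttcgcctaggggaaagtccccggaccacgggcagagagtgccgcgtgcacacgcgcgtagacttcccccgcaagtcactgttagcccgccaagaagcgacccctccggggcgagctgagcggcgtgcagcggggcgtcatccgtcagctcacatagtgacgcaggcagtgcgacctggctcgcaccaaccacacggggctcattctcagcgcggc

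U1 and U2 are shown as 1 copy each, with the site where Sm proteins bind in capitals, at chr11:87422867-87423030 and chr11:101658238-101658428, both on the plus strand. All 9 U1 genes kept held ATTTGTG, as did 12.9% of the 1382 snRNA genes, and all 9 U2 genes held ATTTTTG, as did 3.33% of them. The 2 U3 forms share 85.2% of their bases, and Rnu3b2 differed from Rnu3b1 by 1 base, so only Rnu3b1 (chr11:87443237-87443452, plus strand) and Rnu3a (chr10:40258467-40258680, plus strand) are shown. They are shown with U8 (Snord118, chr11:69073427-69073561, plus strand), and the capitals mark CTGA, the D box, near the 3' end.
Rnu1a1: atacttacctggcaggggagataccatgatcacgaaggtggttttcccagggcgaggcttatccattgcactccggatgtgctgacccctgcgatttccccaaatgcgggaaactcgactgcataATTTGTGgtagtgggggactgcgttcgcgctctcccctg
Rnu2-10: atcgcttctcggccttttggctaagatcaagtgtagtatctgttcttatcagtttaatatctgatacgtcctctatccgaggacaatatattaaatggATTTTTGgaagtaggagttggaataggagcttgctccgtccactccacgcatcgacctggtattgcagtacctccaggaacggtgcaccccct
Rnu3b1: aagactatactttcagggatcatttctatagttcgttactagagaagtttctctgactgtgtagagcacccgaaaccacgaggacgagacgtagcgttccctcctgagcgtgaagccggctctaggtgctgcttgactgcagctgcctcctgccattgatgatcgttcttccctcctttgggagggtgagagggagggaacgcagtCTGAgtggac
Rnu3a: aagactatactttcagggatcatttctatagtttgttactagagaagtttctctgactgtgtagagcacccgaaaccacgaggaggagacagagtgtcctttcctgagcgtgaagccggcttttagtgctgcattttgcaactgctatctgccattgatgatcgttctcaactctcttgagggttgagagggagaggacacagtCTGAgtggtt
Snord118: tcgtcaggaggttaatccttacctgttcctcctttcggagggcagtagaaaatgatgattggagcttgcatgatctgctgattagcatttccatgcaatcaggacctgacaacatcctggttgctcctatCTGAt

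The H/ACA RNAs shown are a scaRNA and a snoRNA with no count in any saline-injected mouse (Gm26083, chr11:117077243-117077435, plus strand, and Snora81, chr16:23110756-23110933, plus strand), a pair of close copies known to act in ribosomal RNA cutting (Snora73a, chr4:132352775-132352979, and Snora73b, chr4:132352322-132352526, both minus strand), and a snoRNA at about the same level in both groups (Snora43, chr2:26637847-26637985, minus strand). Capitals mark ACA lying 3 bases before the annotated 3' end, which Snora81 as annotated does not have.
Gm26083: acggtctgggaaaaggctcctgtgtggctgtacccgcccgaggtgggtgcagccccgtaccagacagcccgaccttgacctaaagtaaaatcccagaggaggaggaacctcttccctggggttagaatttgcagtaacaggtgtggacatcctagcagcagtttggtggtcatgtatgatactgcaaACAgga
Snora81: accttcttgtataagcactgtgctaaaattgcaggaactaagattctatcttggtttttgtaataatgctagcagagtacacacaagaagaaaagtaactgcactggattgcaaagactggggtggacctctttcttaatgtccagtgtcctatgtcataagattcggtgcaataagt
Snora73a: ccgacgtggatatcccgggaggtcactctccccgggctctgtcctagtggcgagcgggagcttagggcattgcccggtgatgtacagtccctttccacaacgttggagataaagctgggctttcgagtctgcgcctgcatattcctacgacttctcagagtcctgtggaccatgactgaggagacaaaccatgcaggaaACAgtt
Snora73b: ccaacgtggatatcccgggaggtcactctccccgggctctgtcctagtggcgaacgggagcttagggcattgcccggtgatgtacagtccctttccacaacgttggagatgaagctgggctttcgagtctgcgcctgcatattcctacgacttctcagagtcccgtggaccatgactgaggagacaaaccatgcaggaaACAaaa
Snora43: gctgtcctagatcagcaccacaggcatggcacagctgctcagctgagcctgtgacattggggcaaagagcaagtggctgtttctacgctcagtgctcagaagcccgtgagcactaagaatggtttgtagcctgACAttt

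Genes that gave counts were nearly all among the longer ones. Of the 2910 genes, 2736 had 0 counts in every mouse and 109 had between 1 and 9 in all. The 65 RNAs kept were 121 to 414 nt long, with a median of 164 nt, and the genes under the floor had a median of 107 nt. None of the 1675 genes shorter than 121 nt came near the floor, since 7 of them had any count and the highest total was 2. From 121 to 149 nt, 23 of 958 genes were kept (2.40%), from 150 to 199 nt 24 of 242 (9.92%), and from 200 nt 18 of 35 (51.4%). Length alone did not decide it, since 1068 of the 1235 genes of 121 nt or more had no count either. The kept RNAs are the long members of their classes, and what happened to the short ones, which include most box C/D snoRNAs, was not detectable in these libraries. An ACA 3 bases before the 3' end was found in 24 of the 44 snoRNA and scaRNA genes kept (54.5%) and in 24.7% of the 884 under the floor that were at least as long as the shortest one kept. Both TGATGA in the first 30 bases and CTGA in the last 30 were found in 6 of the 44 (13.6%) and in 0.905% of the 884. Over all 1525 snoRNA and scaRNA genes with a sequence the shares were 18.6% and 20.98%, respectively.

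**Figure D1:**
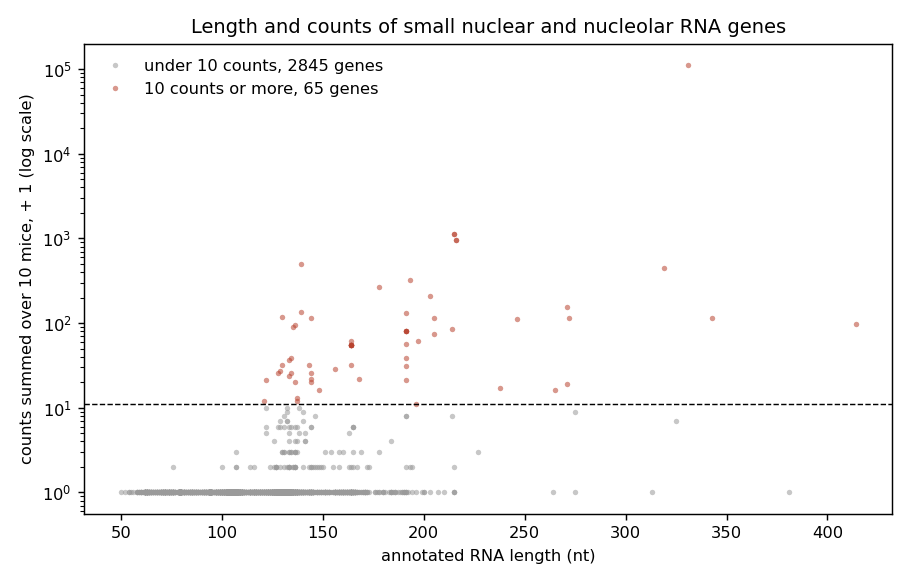
Annotated RNA length (nt, x axis) and expected counts summed over the 10 mice plus 1 (log y axis) for the 2910 genes, with the floor of 10 counts as a dashed line. The 65 genes above the line (red) are all 121 nt or longer, and Rn7sk lies far above the rest.

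The libraries held 25965699 to 62097636 expected counts, and 3 counts correspond to 0.0576 to 0.120 CPM (counts per 1000000 of the TMM-scaled library total), the unit used below. Hepatocyte markers fitted the label of the tissue, with 105132 to 135597 CPM summed over 8 genes in saline-injected controls and 44956 to 81764 after CD95-Ab, and 2 of the 8 fell (Alb and Ttr). Summed markers of other cells were higher after CD95-Ab. All 7 erythroid markers rose (138 to 330 CPM compared with 1082 to 32351), as did 7 of 9 neutrophil markers (3.16 to 7.66 compared with 91.4 to 386), 5 of 6 endothelial markers and 3 of 8 macrophage markers, and no marker was at 0 in all mice. Of other RNAs that lack a long poly(A) tail, 5 were tested, of which 3 rose and 2 were not called. Rn7s1 and Rn7s2 (signal recognition particle RNA), which may share reads, each rose by 3.22 on the log2 scale (standard error 0.43). The mitochondrial ribosomal RNA mt-Rnr1 rose by 1.44 (standard error 0.37). Of the 2 not called, mt-Rnr2 stood at 0.40 (FDR = 0.426). Rn7s6, Rny1 and Rny3 had no count. In whole liver, a change in the number of cells of a type cannot be told apart from a change in RNA per cell. The sources used here do not say whether RNA with poly(A) was selected, so the CPM of RNAs without a tail are not a measure of their share of cellular RNA. The part of other cells, and of the recovery of RNAs without poly(A), in the results below was not tested.

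Nearly all of the 65 RNAs kept took a larger share of the library counts after CD95-Ab than in saline-injected controls. Summed over all 2910 genes, the classes made up 2.49, 3.31, 2.57, 3.003 and 5.13 CPM in the 5 saline-injected mice and 382, 766, 835, 1358 and 589 CPM in the 5 mice injected with CD95-Ab. Each treated mouse lay far above each control, and saline replicate 5 held 267 of the 650 counts of the controls. Rn7sk alone took 67 of the 650 counts of the classes in controls (10.3%), where Snora43 had the most at 289, and 92.7% of those after CD95-Ab. Without it the sum was 2.90 ± 1.16 CPM (SD, n = 5) in controls and 56.9 ± 24.6 CPM after CD95-Ab, a ratio of 19.6. The genes under the floor, which were not tested singly, together gave 42 counts in the controls and 269 in the treated mice.

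Of the 65 RNAs, 59 were called higher (FDR of 0.05 or less in edgeR's quasi-likelihood test over 17708 genes), which is 90.8%, and 21.7% of all genes tested were called higher. None was called lower, compared with 19.3% of all genes, and none was lower at an unadjusted p under 0.05 or called lower by DESeq2. All 59 had a fitted log2 fold change of 2 or more, as did 7.36% of all genes. With no or few counts in controls this fitted value depends on the prior count, and the bound for Snora74a was 1.98 on the log2 scale. In 49 of the RNAs every treated mouse was above every control, as in 15.7% of all genes. The median log2 fold change was 5.19, and 4.41 when genes with no count in controls were set at their bound and the others at the ratio of pooled counts, whereas the median over all genes was 0.01. These counts describe the 65 RNAs and do not test them, because 64 of them had 10 or more counts in the treated mice but 10 had that many in the controls, so most passed the floor only through the group in which they were high. Among genes of 10 to 100 counts in all, 14.9% were called higher. Of the 10 RNAs with 10 or more counts in the controls, 7 were called higher (20.9% of all genes with such counts were), and the median over the 10 was 3.29 on the log2 scale. Among these 10, Rnu3b2 and Rnu3b4 are equal copies with the same counts. Rpph1, Scarna2, Snord118 and Snora20 had exactly 10 counts in the controls. The filter filterByExpr kept 16 of the 65, of which 14 were called higher (25.4% of all genes it kept were), but this filter too was passed mostly through the treated mice, as 7 of the 16 had 10 or more counts in the controls and 4 had none. With the replicate number as a block, 57 were called higher, and 20.0% of all genes.

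**Figure D2:**
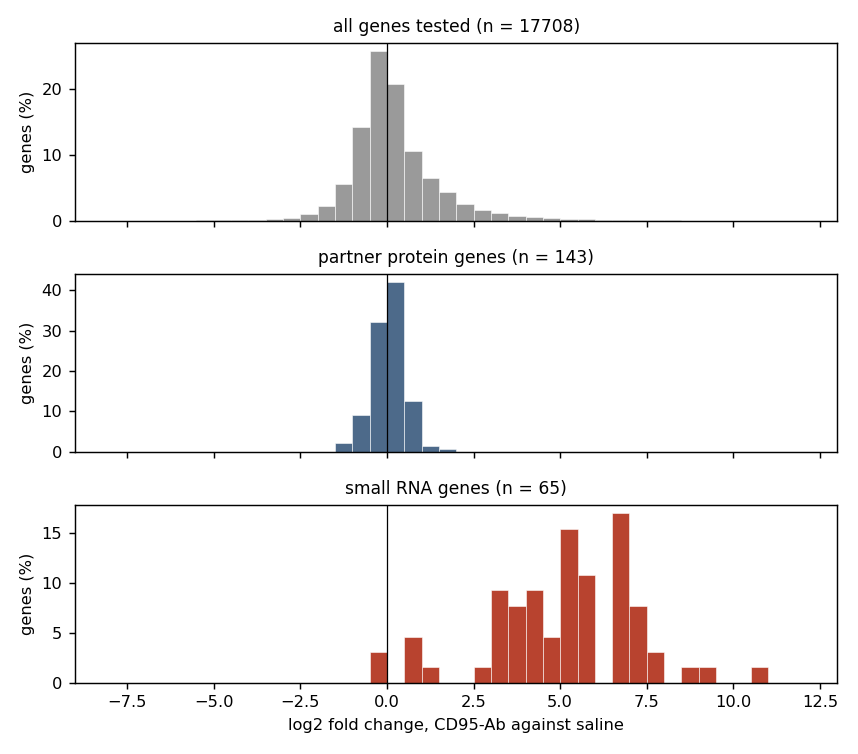
Log2 fold change of CD95-Ab against saline (x axis, bins of 0.5) as a percentage of genes (y axis) for all 17708 genes tested, 143 genes of partner proteins and the 65 small RNA genes. All genes and partner genes centre on 0 (medians 0.01 and 0.05), and 59 of the 65 small RNA genes lie above 2; values of genes with no count in saline depend on the prior count.

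Rn7sk had 12, 13, 10, 21 and 11 counts in the 5 saline-injected mice and 11057, 21818, 20140, 32218 and 25296 counts in the 5 mice injected with CD95-Ab. In CPM this was 0.396 ± 0.239 (SD, n = 5) and 729 ± 346 (SD, n = 5), and the lowest treated mouse, at 361 CPM, was still far above the highest control, at 0.808 CPM. On the log2 scale it rose by 10.92 (standard error 0.51, FDR = 5.85e-08; exact permutation test on log2(CPM + 0.1), p = 0.00794, the smallest that 5 mice against 5 allow). It was the one RNA of the set called higher that had 10 or more counts in each of the 10 mice. Per kb of annotated RNA it reached 2203 CPM after CD95-Ab, compared with 9.99 for Snora43. In controls Rn7sk stood at 1.196 CPM per kb and Snora43 at 10.3. Rnu3b2 reached 34.3 CPM per kb after CD95-Ab, but it is 1 of 2 equal copies that share reads. Its value therefore understates U3 as a whole.

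The other polymerase III RNAs rose as well. Rmrp, the RNA of the RNase MRP particle that cuts ribosomal RNA precursors, had 0, 0, 0, 0 and 1 count in controls and 9, 36, 43, 41 and 23 after CD95-Ab. With 1 count in the controls, the ratio of pooled CPM was 179, with an exact 95% interval of 31.7 to 7127 that covers counting error only (log2 fold change 6.87, standard error 0.80, FDR = 3.08e-05). Ccdc107 lies on the opposite strand at this place, and whether the counting used strand is not stated. Rpph1 (chr14:50807449-50807767, minus strand), the RNA of RNase P, which trims transfer RNA precursors, had 1, 3, 1, 2 and 3 counts in controls and 51, 151, 91, 74 and 70 after CD95-Ab. Its mean went from 0.0554 ± 0.0292 to 2.87 ± 1.34 CPM (SD, n = 5 each; log2 fold change 5.65, standard error 0.47, FDR = 2.10e-06). Rpph1 overlaps an exon of Ccnb1ip1 on the same strand, so the split of reads between them is uncertain. In both RNAs all treated mice were above all controls.

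**Figure D3:**
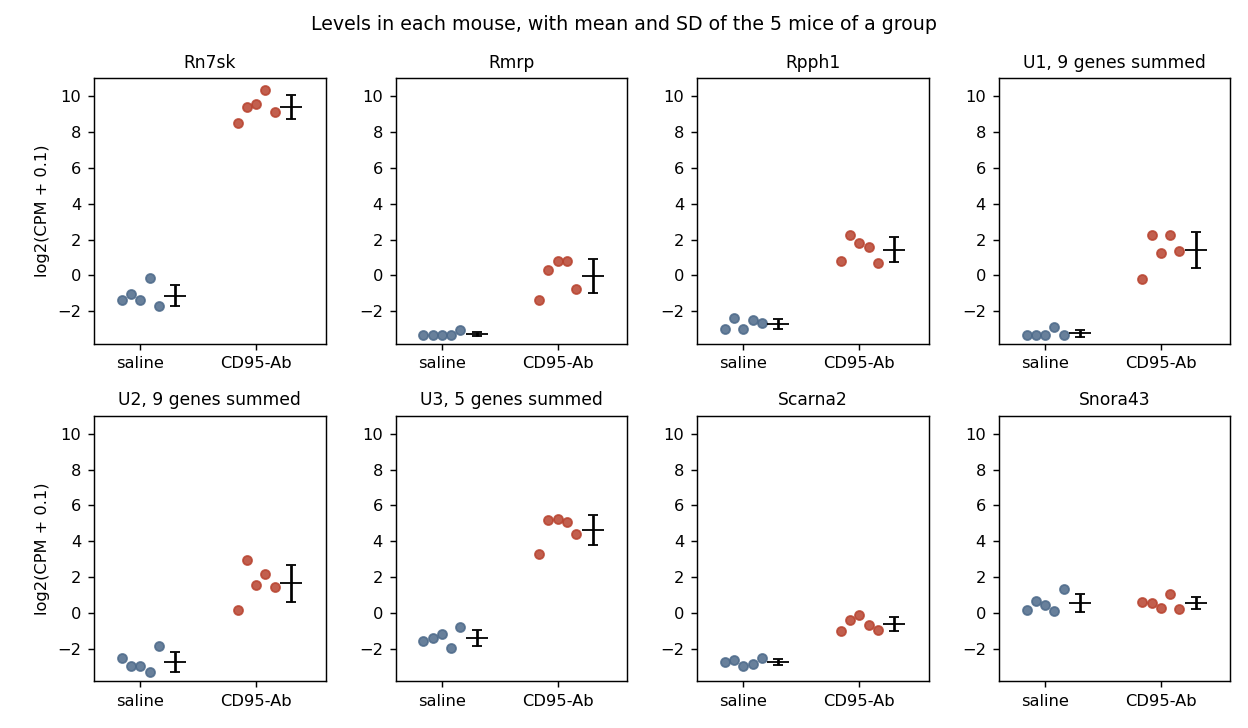
Level as log2(CPM + 0.1) (y axis) in each saline-injected (blue) and CD95-Ab-injected (red) mouse, with the mean and SD of these values in black, for 5 single RNAs and the sums of the U1, U2 and U3 genes. The groups are apart in 7 panels and overlap for Snora43.

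All 9 U1 and all 9 U2 genes kept were called higher. These genes share reads, because 7 of the U1 genes, Rnu1a1 among them, have the same sequence and were given equal counts, and so have 4 of the U2 genes (Rnu2-10, Gm23849, Gm23971 and Gm24950). Single copies are therefore uncertain, and sums are given. The deposited values are whole numbers for each copy, so a few reads shared among equal copies may stand as 0. The sums are therefore approximate. The whole numbers of the 7 equal U1 copies summed to 0 in each control and to 21, 119, 49, 98 and 91 after CD95-Ab. The 4 equal U2 copies had 0, 0, 0, 0 and 8 counts in controls and 12, 132, 56, 56 and 56 after CD95-Ab, and each treated mouse was above each control in both sums. Summed over all 9 genes, U1 stood at 0.00770 ± 0.0172 CPM in controls and 3.02 ± 1.72 CPM after CD95-Ab, and U2 at 0.0606 ± 0.0677 and 3.71 ± 2.53 CPM (SD, n = 5 each). The U2 gene with the most counts, Gm25360, differs from Rnu2-10 by 4 bases and had 1, 0, 1, 0 and 0 counts in controls and 8, 50, 7, 26 and 37 after CD95-Ab (pooled ratio 75.5, exact 95% interval 20.5 to 630). All 18 snRNA genes kept were copies of U1 or U2, and none had 10 or more counts in the controls. Of all genes, 21.7% were called higher.

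U3, which joins the early processing of the ribosomal RNA precursor, gave the most counts after Rn7sk. All 5 U3 genes were called higher, compared with 21.7% of all genes. In sum they had 10, 9, 12, 4 and 25 counts in controls and 293, 1147, 998, 838 and 953 after CD95-Ab. This was 0.297 ± 0.122 and 27.5 ± 12.1 CPM (SD, n = 5 each). Only Rnu3b2 and its equal copy Rnu3b4 had 10 or more counts in the controls. The others passed the floor only through the treated mice. The log2 fold change was 7.43 for Rnu3b1 and its equal copy Rnu3b3 (standard error 0.59, FDR = 1.63e-06) and 5.91 for Rnu3b2 and Rnu3b4 (standard error 0.48, FDR = 1.83e-06). Rnu3a had 2 counts in controls and 83 after CD95-Ab (pooled ratio 48.9, exact 95% interval 13.1 to 411). Since Rnu3b1 and Rnu3b2 differ by 1 base, the division between these pairs is uncertain. Each RNA was also centred on its own mean log2 CPM over the 10 mice and compared with Rn7sk. The smallest mean absolute differences were those of Rnu3b3 and Rnu3b1 (2.54), Rnu3b2 and Rnu3b4 (2.73) and Gm26083 (3.14). This measure spans both groups and is not scaled, so it depends on the size of the rise. It does not show that the RNAs varied together among mice of a group. U8, which acts on the RNA of the large ribosomal subunit, had 1, 1, 1, 1 and 6 counts in controls and 8, 15, 25, 14 and 17 after CD95-Ab. On the log2 scale it rose by 3.25 (standard error 0.53, FDR = 3.77e-04), and the groups did not overlap in CPM. Snord17, the other gene with a Snord symbol, had 1 count in controls and 15 after CD95-Ab (pooled ratio 17.7, exact 95% interval 2.72 to 745, FDR = 0.00799), with CD95-Ab replicate 5 inside the range of the controls.

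Among H/ACA snoRNAs, 8 of 10 genes with a Snora symbol were called higher. So were 22 of the 24 snoRNA and scaRNA genes with ACA at the place described, compared with 21.7% of all genes. In each of these sets only 2 had 10 or more counts in the controls, Snora43 and Snora20, and neither was called. The others passed the floor only through the treated mice. Snora81 had no count in any control and 11, 59, 75, 74 and 45 counts after CD95-Ab. Against a floor of 3 counts over the control group this is at least 104-fold higher. By the same measure Snora30 was at least 46.4-fold and Gm25291 at least 45.2-fold higher, with 11 or more counts in every treated mouse. Gm25291 shares 97.2% of its bases with Gm22988 in Eif4a1, so its reads cannot be placed with certainty. Snora73a had 1, 1, 2, 0 and 5 counts in controls and 11, 35, 22, 18 and 19 after CD95-Ab (log2 fold change 3.79, standard error 0.55, FDR = 1.64e-04). Its copy Snora73b shares 96.6% of its bases and had no count in controls and 10, 28, 31, 5 and 0 after CD95-Ab, so that CD95-Ab replicate 5 stood with the controls and the split between both copies is uncertain. Both lie inside Rcc1 and opposite Gm17300, and Snora73a also overlaps an exon of Snhg3. At the floor, Snora74a had 10 counts and Snora26 and Gm25791 had 11, all in treated mice, while Gm22786, Snora3 and Snora47 had 9 counts, also all in treated mice, and were left out.

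Of the 5 scaRNA genes, 3 rose (21.7% of all genes were called higher). Of these 3, Gm26083 and Gm25395 had fewer than 10 counts in the controls and passed the floor only through the treated mice. Gm26083 had no count in controls and 13, 83, 74, 76 and 75 counts after CD95-Ab, at least 126-fold more. Scarna2 (chr3:108554338-108554751, minus strand), which guides methylation of U2, had 2, 2, 1, 1 and 4 counts in controls and 12, 21, 22, 13 and 19 after CD95-Ab (log2 fold change 3.34, standard error 0.40, FDR = 4.10e-05), with no overlap between the groups in CPM. Gm25395 went from 0.0524 ± 0.0353 to 0.638 ± 0.289 CPM (SD, n = 5 each; log2 fold change 3.62, standard error 0.56). Scarna6, which like Gm25395 lies in Atg16l1, had 6 counts in controls and 9 after CD95-Ab (log2 fold change 0.85, standard error 0.97, FDR = 0.522). Gm22009, in Kpna4 (chr3:69085105-69085447, minus strand), had 17, 10, 7, 8 and 27 counts in controls and 11, 6, 6, 5 and 18 after CD95-Ab (log2 fold change -0.33, standard error 0.36, FDR = 0.494), and the groups overlapped.

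Snora43 was the snoRNA with the most counts in controls and was not called. It had 42, 49, 45, 25 and 128 counts in controls and 44, 44, 29, 49 and 49 after CD95-Ab. This was 1.43 ± 0.61 and 1.39 ± 0.36 CPM (SD, n = 5 each), a difference of -0.06 on the log2 scale (standard error 0.29, FDR = 0.881; exact permutation test, p = 1.0), and the groups overlapped. Leaving out saline replicate 5, which had the highest value, turned the log2 fold change to 0.23 (FDR = 0.508). The ratio of pooled CPM was 0.877 with a 95% interval for counting error of 0.732 to 1.05. Snora43 and Rn7sk were the only RNAs of the set with 10 or more counts in every mouse. The remaining genes not called, picked out after their values were seen, had few counts in both groups. Snora20 had 10 counts in controls and 15 after CD95-Ab (log2 fold change 0.69, FDR = 0.508), Gm23262 had 8 and 13 (0.91, FDR = 0.412), and Gm25835 had 6 and 15 (1.42, FDR = 0.189). Their pooled ratios had 95% intervals of 0.744 to 4.40, 0.736 to 5.33 and 1.08 to 9.28, so rises of several-fold lay within them.

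**Figure D4:**
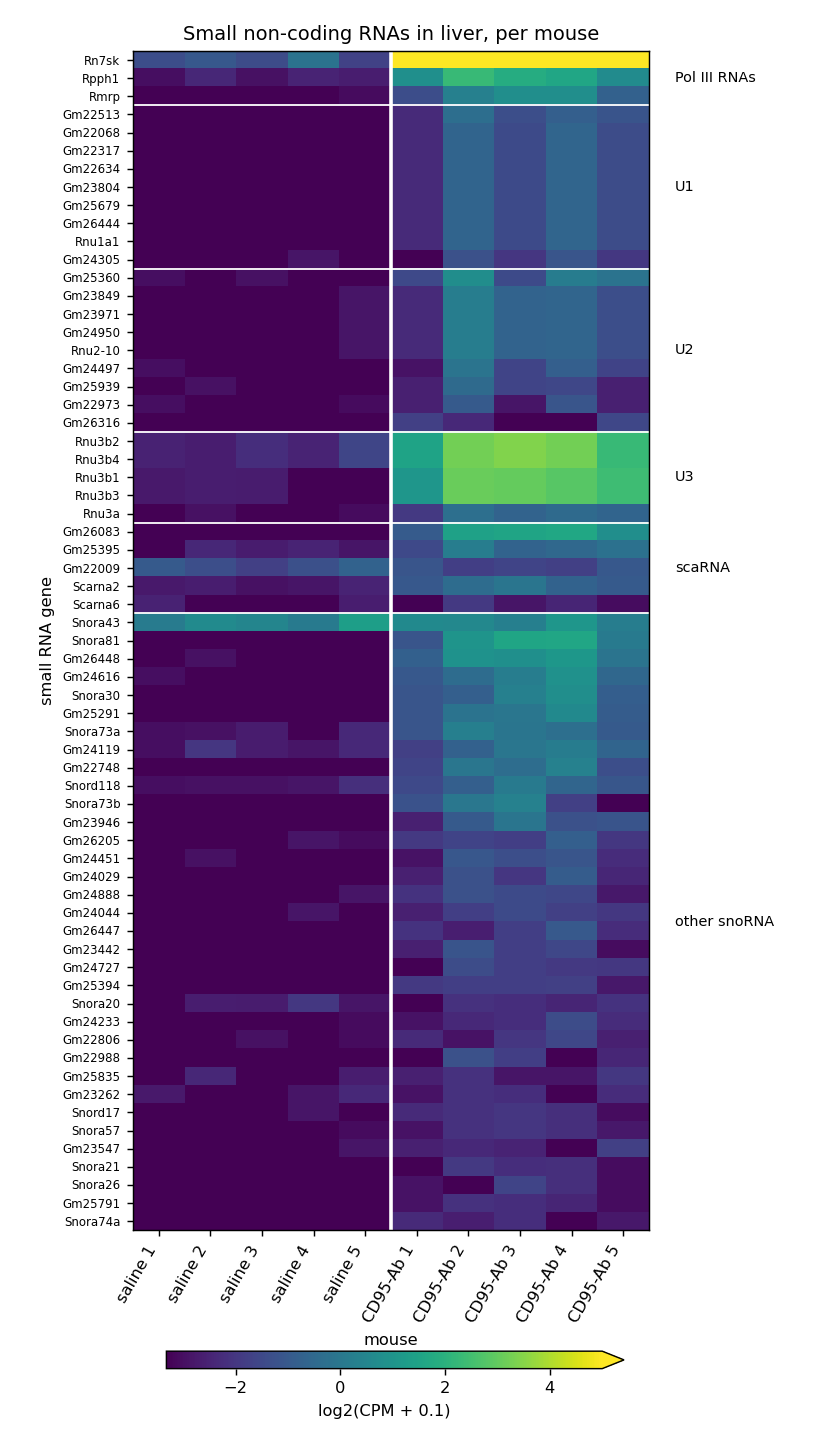
Level of each of the 65 RNA genes (rows, grouped by class) in each mouse (columns) as log2(CPM + 0.1), on a colour scale that stops at 5, above which Rn7sk lies in all treated mice. The right columns are brighter in nearly all rows; Snora43 and Gm22009 are about as bright on both sides, and CD95-Ab 1 is the darkest treated column in many rows.

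The treated mice differed among themselves. Over the 48 distinct sequences called higher, CD95-Ab replicate 1 was the lowest treated mouse for 32 and the highest for none, whereas CD95-Ab replicate 2 was the highest for 18, replicate 4 for 18 and replicate 3 for 10. The sum without Rn7sk was 21.6, 76.5, 72.4, 73.7 and 40.4 CPM in CD95-Ab replicates 1 to 5. Erythroid markers summed to 1082, 7004, 32351, 20416 and 5253 CPM in the same order and neutrophil markers to 91.4, 238, 386, 241 and 296 CPM. CD95-Ab replicate 1 was the lowest of the 5 in all 3 sums. Whether these measures are linked was not tested.

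Of the 65 RNAs, 44 lie inside another gene on the same strand, and 41 of them in a gene that was tested. The 28 tested surrounding genes had a median of 0.10 on the log2 scale, with 6 higher, 4 lower and 18 not called, and the shares of 21.4% and 14.3% stand beside 21.7% and 19.3% of all genes. Among snoRNA and scaRNA genes other than U3 in tested genes, 27 of 32 were called higher, of which 18 lie in a gene that was not called, 7 in a gene that was higher and 2 in a gene that was lower (Gm24233 in Mia2 and Gm23547 in Phb2). For 31 of the 32, the log2 fold change was above that of the surrounding gene. This is a description and no test. Of all 39 snoRNA and scaRNA genes inside another gene, 5 had 10 or more counts in the controls. Most thus passed the floor only through the treated mice, which largely fixed this outcome in advance. Snora81 lies in Eif4a2, an initiation factor gene, which stood at 222 ± 17 CPM in controls and 181 ± 20 CPM after CD95-Ab (SD, n = 5 each; log2 fold change -0.30, FDR = 0.0679). The surrounding gene of Gm26083, Snhg20, differed by -0.11 on the log2 scale (standard error 0.28, FDR = 0.779), and Sec24a, which holds Gm25291, by -0.42 (FDR = 0.0968). Snora81 overlaps an exon of Eif4a2 and Gm26083 an exon of Snhg20, so in both pairs reads may be shared, and the reads of Gm25291 may belong in part to its near copy in Eif4a1. Gm22748 lies in Odc1, the rate-limiting enzyme of polyamine synthesis, which rose from 50.1 ± 20.0 to 193 ± 86 CPM (SD, n = 5 each; log2 fold change 1.95) while Gm22748 had 0 counts in controls and 95 after CD95-Ab. At the other end, the lincRNA D230017M19Rik fell (log2 fold change -2.91, standard error 0.38) while the U2 copies assigned to it, Gm24497 and Gm25939, went from 1 count each in controls to 55 and 37 after CD95-Ab. These copies share 98.95% and 98.43% of their bases with the Rnu2-10 group, so whether their reads came from this place is uncertain. The 4 Rnu3b genes and 2 of the U1 copies lie within Tex14 (log2 fold change -0.09, FDR = 0.870). In all, 17 of the 65 RNAs overlap an exon of another gene on the same strand. Among the 48 without such overlap 43 were called higher, and 9 of the 48 had 10 or more counts in the controls.

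**Figure D5:**
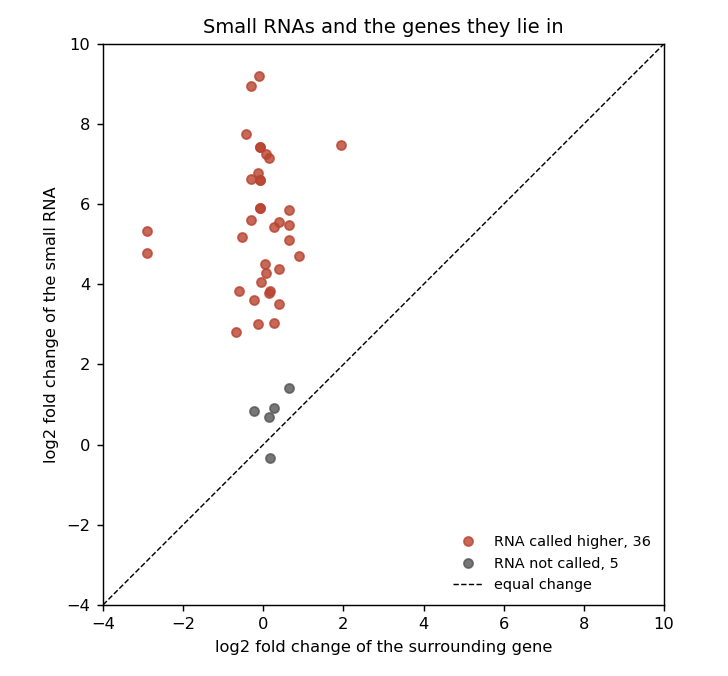
Log2 fold change of the surrounding gene (x axis) and of the small RNA inside it (y axis) for the 41 RNAs in a tested gene, with equal change as a dashed line. The 36 RNAs called higher (red) lie above the line while their surrounding genes range from -2.91 to 1.95. The 5 not called (grey) lie near the line. Most of the RNAs passed the floor only through the treated mice.

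The genes of proteins that make, bind or trim these RNAs were compared in the same fit. Of 143 tested, 27 rose, 17 fell and 99 were not called, at a median of 0.05 on the log2 scale. The shares were 18.9% higher and 11.9% lower, compared with 21.7% and 19.3% of all genes, so that partner genes were not called more often than genes at large. None of those called reached a log2 fold change of 2 in either direction. In the 7SK particle, 2 of 13 rose and 2 fell. Mepce, which caps 7SK RNA, fell from 18.6 ± 1.2 to 8.01 ± 0.97 CPM (SD, n = 5 each; log2 fold change -1.21), while Larp7, which binds its 3' end, rose (0.69, standard error 0.16), as did Hnrnpa1 (0.73). Hexim1, the inhibitor held by 7SK RNA, differed by -0.12 (FDR = 0.544). None of the 11 RNase P and MRP protein genes rose, and 2 fell, Rpp40 (-0.87, standard error 0.21) and Rpp25l (-0.51). Among box C/D proteins 7 of 12 rose and Pih1d1 fell. Nop58, a core protein, went from 15.3 ± 2.2 to 43.7 ± 4.4 CPM (SD, n = 5 each; log2 fold change 1.51, standard error 0.13), the largest rise among all partner genes, and Nop56 (0.90) and Snu13 (0.66) rose too. The methylase gene Fbl did not pass the test (0.28, FDR = 0.0786). Of 7 box H/ACA genes 3 rose, Gar1 (1.24, standard error 0.18), Naf1 (1.01) and Shq1 (0.62), and Wrap53, which carries scaRNAs to Cajal bodies, fell (-0.61). The pseudouridine synthase gene Dkc1 did not pass the test (0.31, FDR = 0.296).

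In the remaining lists the share called higher was under the 21.7% of all genes. Of 33 Sm and snRNP protein genes, 5 rose and 2 fell, among them Snrpd1 (log2 fold change 0.87, standard error 0.19), Snrnp40 (0.54) and Lsm10 (-1.28, standard error 0.20). Cajal body and SMN complex genes had 2 of 13 lower and none higher, namely Gemin2 (-1.08, standard error 0.15) and the snRNA export factor Phax (-0.66), and Coil, the marker protein of Cajal bodies, differed by 0.02 (FDR = 0.946). Of 32 genes for snRNA transcription and 3' end formation, 6 rose and 4 fell, with Nelfcd at -0.88, Ssb (the La protein, which binds polymerase III transcripts) at 0.57 and the Integrator subunit Ints2 at 0.78. Trimming and decay genes had 4 of 22 higher and 3 lower, among them the nuclease Dis3 (0.71), the exosome subunit Exosc5 (-0.76) and Pabpn1 (-0.75). In each of these 4 lists most genes were not called.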

How the data were processed

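Livers of 5 saline-injected and 5 CD95-Ab-injected mice were compared, grouped by the sample titles. The authors assigned paired reads to genes with RSEM 1.2.19, with its standard parameters, and deposited 1 table per mouse. These tables give expected counts per gene as the authors deposited them, in whole numbers and without normalization. The FPKM values in the same tables, scaled by the authors for length and depth, were not used. RSEM shares out reads that match several genes, so equal copies receive equal counts. In whole numbers, a few reads shared in this way may stand as 0. The mouse annotation and build are not given in the sources used here. Classes, symbols, positions (1-based) and sequences came from GENCODE release 21 (GRCm38), which matched 37606 of 38922 identifiers, and 1316 had no match.

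Genes with 10 or more counts over the 10 mice were fitted with edgeR 4.0.16 in R 4.3.3 (TMM factors, quasi-likelihood test, group as the only term), with Benjamini-Hochberg adjustment (FDR) over 17708 genes and an FDR of 0.05 or less as the call. Standard errors come from the F statistic. CPM are counts per 1000000 of the TMM-scaled total. Single RNAs were also compared by a two-sided exact permutation test over 252 splits. Python 3.11.15, pandas 2.3.3, scipy 1.17.1 and matplotlib 3.10.9 were used for the rest. Bounds use a floor of 3 counts over the control group, and 95% intervals are exact and cover counting error only. Fitted log2 fold changes of RNAs with no or few counts in controls depend on the prior count of 0.125.

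The RNAs, the lists of partner and marker genes and the tests were chosen with earlier results of these data known. Named are Rn7sk, Rmrp and Rpph1, the RNAs with the highest mean CPM in each class, and those at the floor. The largest increases with 10 or more counts in every treated mouse are named too, as are the genes that surround named RNAs. The rule adds up to 3 partner genes per list with the smallest FDR, and the 5 RNAs nearest to Rn7sk in centred log2 CPM. Coil, Dkc1, Fbl, Hexim1, Pih1d1 and Wrap53 and other genes outside this rule were named after their values were seen. The code was tested on simulated counts of 17037 genes. It recovered 100% of 200 genes changed by a log2 fold of 2, and 7.41% of its calls were false. The changed genes were drawn from those simulated at 1 CPM or more before the change. In controls only Snora43 of the 65 RNAs had a mean above 1 CPM, so recovery at the control levels of the others was not tested. Within groups, the chi-square per degree of freedom between mice was 39.4 to 515 over 20 pairs, so each mouse counted as 1 sample. The labels give no batch. Alternatives were DESeq2 1.42.0, other factors, filters and prior counts, the replicate block and each mouse left out.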

Additional observations from a re-analysis of the deposited data

How the results depend on the processing

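No alternative called any of the 65 RNAs lower, but 55 of them had fewer than 10 counts in the controls, which left little room for a fall. RLE factors, library totals alone and a fit of every gene with a count each called the same 59 higher, and DESeq2 called 58 of them (without Gm23547). Among all genes, these 4 fits called 3926 of 17708, 3404 of 17708, 3780 of 23118 and 4031 of 17708 higher, respectively. The number fell with the number of RNAs tested. It was 14 of 16 with filterByExpr (snoRNA genes 10, median log2 fold change 6.98), compared with 25.4% of all genes. Of these 16, 9 passed the filter with fewer than 10 counts in controls. With 10 counts required in every mouse it was 1 of 2 (snoRNA genes 0), and 2962 of 12120 among all genes. Among the 10 RNAs with 10 or more counts in controls it was 7 (median 3.29), compared with 20.9% of all such genes. This last set was chosen after seeing the data. Equal copies summed to 1, also chosen after seeing the data, gave 48 of 54, with 9 snRNA genes, and 3837 of 17697 among all genes. A prior count of 2 lowered the median log2 fold change to 2.71. Without RNAs that overlap an exon, 43 of 48 were called, compared with 21.7% of all genes in the main fit. Leaving out 1 mouse at a time gave 54 to 58 calls and medians of 5.03 to 5.49. Among all genes, 3413 to 3889 were then called higher, of 17405 to 17591 tested. The calls lost to the test were those of Snora26 (without any 1 of the 5 saline mice), Gm23547 (without saline replicate 1, 2, 3 or 4, or CD95-Ab replicate 2) and Gm22988 (without CD95-Ab replicate 3), and the others fell under the floor. Log2 fold changes of Snora43 were 0.23 without saline replicate 5, 0.0049 without CD95-Ab replicate 3 and 0.04 without CD95-Ab replicate 5, down to -0.21 without CD95-Ab replicate 4, and were called in none of them. None of the 44 partner genes called remained with a log2 fold change of 2 required (0), and other alternatives called 32 to 52.

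Same-numbered mice correlated in their deviations from the group means with r of 0.312, 0.113, 0.159, -0.00027 and -0.298. Of the 5, 2 correlated best with their own number. These values gave no clear sign that the numbers pair the mice, but so few correlations cannot exclude it. With the replicate block, 57 RNAs were called higher (Snora26 and Snora74a were not, both with FDR near the threshold at 0.0517 and 0.0530), 35 partner genes were called and the log2 fold change of Rn7sk was 10.86. Depth limits the rest, since 26 of the 65 RNAs had 0 counts in controls and 22 had 1 to 3, so their fold changes have no upper limit or a wide one.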
